A study of Mus musculus with 32 samples.

Results

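The 9 genes described here act in extracellular proteolysis and are 9 of the 55291 gene symbols counted in whole-brain RNA of Dhcr7-deficient and wild-type mice: the gelatinases Mmp9 and Mmp2, the membrane-type metalloproteinases Mmp14, Mmp15, Mmp16 and Mmp24, and the tissue inhibitors Timp1, Timp2 and Timp4. The set was chosen by the counts of the newborn libraries, in which Mmp9 was higher in the mutant, and its relatives and inhibitors were added by name. All 9 symbols were found in the count tables of all 4 stages and passed the filter on low counts in each comparison of genotypes. The animals were C57BL/6J mice, either Dhcr7+/+ (WT) or Dhcr7-/- (KO). Whole brains were taken from embryos at 3 stages, named by embryonic day (E12.5, E14.5, E16.5), and on the day of birth (PND0), with 4 libraries per genotype and stage and 32 in all. Dhcr7 encodes the reductase that makes cholesterol from 7-dehydrocholesterol, and people with mutations in it have Smith-Lemli-Opitz syndrome. The labels give no litter or sex and do not say that the brains of a group came from separate litters, so the p-values measure the spread between these libraries.

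Matrix metalloproteinases are zinc-dependent enzymes, made as inactive precursors, that cleave collagens, laminins, proteoglycans and many cell-surface proteins. The gelatinases are secreted and cleave denatured collagen and the type IV collagen of basement membranes. Membrane-type enzymes stay at the cell surface, and MMP14 activates the MMP2 precursor there in a complex that includes TIMP2. The TIMPs close the catalytic site with the start of their mature chain. In the developing brain these genes are known for vessel growth, cell migration, the remodelling of synapses and the upkeep of the meninges.

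The catalytic zinc of each of the 6 enzymes is held by 3 histidines of 1 short stretch of coding sequence. It is shown because it forms the zinc site of all 6 enzymes. The histidine codons are in capitals. The sequences are coding strand, 5′ to 3′, of GENCODE transcripts on GRCm38.
Mmp9: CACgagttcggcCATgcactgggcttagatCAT
Mmp2: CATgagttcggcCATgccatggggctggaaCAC
Mmp14: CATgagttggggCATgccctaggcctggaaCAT
Mmp15: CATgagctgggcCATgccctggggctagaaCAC
Mmp16: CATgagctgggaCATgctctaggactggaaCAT
Mmp24: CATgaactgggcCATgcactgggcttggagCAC
The stretch lies in exon 8 of the gelatinases, at chr2:164951133-164951165 for Mmp9 and chr8:92839279-92839311 for Mmp2. It lies in exon 5 of all 4 membrane-type genes, at chr14:54437627-54437659 for Mmp14, chr8:95368585-95368617 for Mmp15, chr4:18051748-18051780 for Mmp16 and chr2:155807427-155807459 for Mmp24, all on the plus strand. Over its 33 bases Mmp9 matched Mmp2 at 25, Mmp24 at 26 and Mmp16 at 23. The closest pairs, Mmp2 with Mmp15 and Mmp14 with Mmp16, matched at 29.

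The inhibitors are shown by the 27 bases that begin the mature chain, the part that enters the catalytic site, with the codons of its first pair of cysteines in capitals.
Timp1: TGTagcTGTgccccaccccacccacag
Timp2: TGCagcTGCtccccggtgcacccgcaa
Timp4: TGCagcTGTgcgcctgcgcacccccag
They lie in exon 2 of Timp1 (chrX:20871111-20871137, plus strand) and in exon 1 of Timp2 (chr11:118354986-118355012, minus strand) and Timp4 (chr6:115251665-115251691, minus strand). Timp1 matched Timp4 at 21 of the bases and Timp2 at 18, and Timp2 matched Timp4 at 20. Several members share transcribed ground with a neighbour. Timp1 lies inside Syn1 on the opposite strand without shared exons, Timp4 lies inside Syn2 on the opposite strand with overlapping exons, and the 3′ end of Mmp24 overlaps exons of BC029722 on the opposite strand. Timp2 overlaps Cep295nl and Timp4 overlaps Gm17482, both without shared exons; these neighbours had 139 and 6 counts over all 32 libraries. Within 10 kb lie Araf and Mir5617 beside Timp1, and Eif6, Fam83c and Gm16098 beside Mmp24. The sources used here do not say whether the reads were counted by strand, so reads over the shared exons of Timp4 with Syn2 and of Mmp24 with BC029722 cannot be told apart.

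Levels are given as CPM, counts per 1 M counts of the library, with library sizes scaled by TMM over the 32 libraries. The libraries held between 13.87 and 28.32 M counts, so that a count of 0, which allows up to 3 counts, allowed 0.106 to 0.216 CPM. These limits cover counting error only. Dhcr7 averaged 62.5 to 89.2 CPM in the WT groups and 13.2 to 21.9 CPM in the KO groups, with no overlap at any stage. Summed markers of meninges and fibroblasts ran from 725 to 3377 CPM at E12.5 against 531 to 979 CPM in the 24 later libraries, and WT replicate 1 at E12.5 was the highest. All 8 neuron markers were detected in every group, with sums of 2569 to 7193 CPM. Of the 9 hindbrain and spinal cord markers, only Slc6a5 had counts at PND0 in KO. Their sum at PND0 was 1.41, 1.71, 4.58 and 8.86 CPM in WT and 0.238 to 0.515 CPM in KO. At PND0 the sum of erythroid markers was 197 to 261 CPM in WT and 553, 229, 2263 and 629 CPM in KO, so that KO replicate 3 stood apart. In bulk RNA, fewer cells of a type and less RNA per cell cannot be told apart. Each stage has its own count table, so a difference between stages and one between rounds of processing cannot be told apart either.

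Levels of different genes were compared as CPM per kb of the longest annotated transcript, and they spanned a wide range. The order depended on the length used: per kb of coding sequence Timp2 was first in every group. At E12.5 in WT, Mmp14 stood first at 51.3 ± 13.4 CPM per kb (SD, n = 4), above every library of the next gene, Timp2, but overlapping Mmp2. Timp2 followed at 26.7 ± 6.34 and Mmp2 at 24.6 ± 15, and these overlapped each other. Mmp15 (16.4) overlapped Mmp2 and lay above Mmp24 (9.99). Mmp16 (4.38) overlapped Timp1 (3.18), which overlapped Mmp9 (2.16), while Timp4 came last at 0.199 CPM per kb, below every library of Mmp9. By PND0 in WT the order had become Timp2 (101 ± 1.92), Mmp24 (42.7 ± 2.06), Mmp14 (21.7), Mmp15 (17.3), Mmp2 (6.99), Mmp9 (4.19), Mmp16 (2.91), Timp4 (1.99) and Timp1 (1.20). There only Mmp16 and Timp4, next to each other in the order, overlapped. In KO at PND0 the overlapping neighbours were instead Mmp2 (8.01) with Mmp9 (7.97) and Timp4 (1.36) with Timp1 (0.604).

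**Figure D1:**
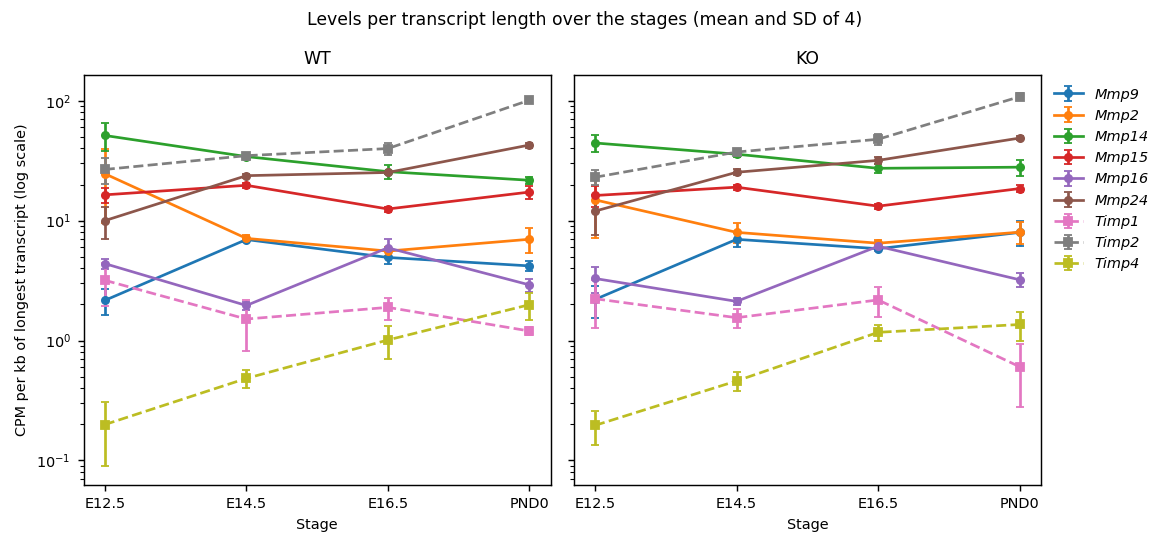
Mean level per transcript length of the 9 genes at each stage in WT (left) and KO (right), in CPM per kb of the longest transcript on a log axis. Points are means of 4 libraries and bars are SD; circles with solid lines are metalloproteinases and squares with dashed lines are inhibitors. Timp2 reached 101 and Timp4 rose from 0.199 to 1.99 CPM per kb in WT by PND0, while Mmp2 was highest at E12.5.

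Mmp9, the inducible gelatinase, was low at E12.5 and had its highest WT level at E14.5. In WT it measured 5.48, 6.70, 9.21 and 6.00 CPM at E12.5 and 22.4, 23.0, 20.8 and 22.0 CPM at E14.5. The stages did not overlap, and the rise was 1.67 on the log2 scale (SE 0.145, edgeR quasi-likelihood test, adjusted p = 1.2e-05). KO rose alike, from 4.56, 8.06, 6.04 and 9.33 CPM to 23.0, 26.0, 19.4 and 20.3 CPM, a log2 fold change of 1.65 (SE 0.197, edgeR adjusted p = 0.000199). The background for these steps is broad: in this first step 27.3% of the genes tested rose and 30.5% fell in WT, and 24.3% rose and 25% fell in KO.

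From E14.5 to E16.5 Mmp9 fell by 0.47 on the log2 scale in WT (SE 0.0925, edgeR adjusted p = 0.000368), to 13.0, 16.7, 17.4 and 15.5 CPM. In KO it fell by 0.25 (SE 0.0874, edgeR adjusted p = 0.0155), to 18.0, 18.5, 18.8 and 18.8 CPM. The E16.5 libraries were below all E14.5 libraries of their genotype. The KO call was lost without E14.5 KO replicate 2 (adjusted p = 0.102) and when all 32 libraries were fitted (0.186). In this step 29.3% of genes rose and 28.2% fell in WT, and 30.9% rose and 30.5% fell in KO.

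At PND0 the WT libraries had 13.7, 14.52, 13.6 and 11.4 CPM of Mmp9 and the KO libraries 19.5, 23.3, 33.4 and 25.0 CPM. Every KO library was above every WT library, with the highest value in KO replicate 3. The log2 fold change was 0.92 (SE 0.161), or 1.89-fold; leaving out KO replicate 3 gave 0.75 and leaving out KO replicate 1 gave 1.03. This contrast chose the gene, so it is a description with no test. Against E16.5, the PND0 level differed by -0.26 in WT and by 0.43 in KO on the log2 scale, also without a test. At the other stages the genotypes were compared with libraries that had no part in choosing Mmp9. The log2 fold change was 0.02 at E12.5 (SE 0.248, edgeR adjusted p = 0.993), 0.02 at E14.5 (SE 0.0809, edgeR adjusted p = 0.982) and 0.23 at E16.5 (SE 0.0958, edgeR adjusted p = 0.394). At E16.5 all 4 KO libraries lay above all 4 WT libraries, but the difference did not pass the test.

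**Figure D2:**
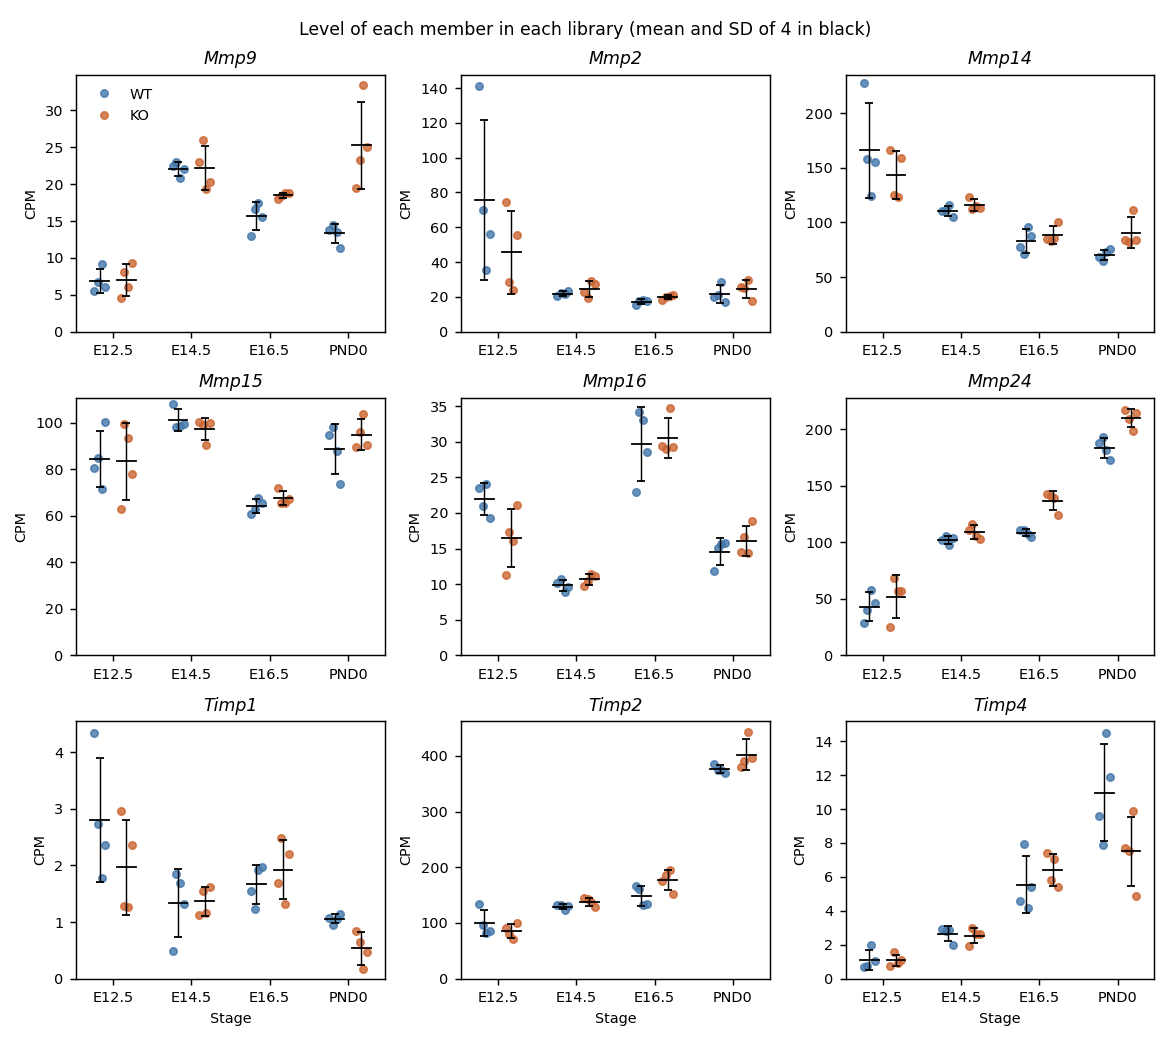
CPM of each gene in each library by stage, in WT (blue) and KO (orange); each panel has its own axis from 0. Points are libraries, black lines the mean and bars the SD of 4. For Mmp9 the 4 KO libraries at PND0 lie between 19.5 and 33.4 CPM, above the WT libraries at 11.4 to 14.52 CPM.

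Markers of cells known for high Mmp9 were set beside this difference. The 12 neutrophil markers summed to 8.77, 3.55, 17.4 and 7.42 CPM in WT and 11.2, 7.85, 11.9 and 7.39 CPM in KO at PND0, with overlap. Elane and Ly6g had 0 counts in both groups, and only Prtn3 in KO and S100a9, Ngp and Prtn3 in WT had means of at least 1 CPM. The 12 microglia and macrophage markers, all detected, summed to 120 to 161 CPM in WT and 127 to 160 CPM in KO. The 11 osteoclast and bone markers summed to 26.7 to 31.1 CPM in WT and 16.9 to 28.3 CPM in KO, with Ocstamp at 0 in WT. The 9 endothelial markers summed to 351 to 475 CPM in WT and 334 to 499 CPM in KO. The genotypes overlapped in each of these 4 sums, and the part of these cells in the Mmp9 difference was not tested. The erythroid sum given above was highest in KO replicate 3, the library with the most Mmp9, and its part in the result was not tested. Other marker sums were also highest in that library, as given below. The sum of 7 choroid plexus markers was 534, 616, 339 and 633 CPM in WT and 730, 625, 1015 and 754 CPM in KO, and its part was not tested.

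Slc12a5, which encodes the neuronal potassium-chloride cotransporter KCC2, begins 4951 bases after the end of Mmp9 on the same strand. It had 330, 395, 415 and 327 CPM in WT and 353, 340, 356 and 235 CPM in KO at PND0. The genotypes overlapped, and the log2 fold change was -0.20 (SE 0.129), opposite in sign to that of Mmp9.

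Mmp2, the constitutive gelatinase of connective tissue, ran the other way from Mmp9 at the first step. WT had 141, 70.1, 35.4 and 56.1 CPM at E12.5 and 20.3, 22.3, 21.5 and 23.4 CPM at E14.5, a fall of 1.82 on the log2 scale (SE 0.384, edgeR adjusted p = 0.00385). Without E12.5 WT replicate 1 the log2 fold change was -1.31 and still passed. In KO the levels were 74.8, 28.4, 24.1 and 55.7 CPM at E12.5 and 22.5, 19.1, 29.1 and 27.7 CPM at E14.5. These overlapped, and the log2 fold change of -0.91 (SE 0.330, edgeR adjusted p = 0.0418) missed the threshold when any of 6 libraries was left out (E12.5 KO replicate 1 or 4, or any at E14.5; adjusted p 0.0603 to 0.237). It also missed with no filter on low counts (0.178), in DESeq2 (0.062) and with the replicate block (0.0586).

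The E12.5 spread of Mmp2 moved with the 10 markers of meninges and fibroblasts, among them Col1a1, Col3a1 and Dcn. Their sum at E12.5 was 3377, 2235, 1498 and 2010 CPM in WT and 2442, 725, 786 and 2814 CPM in KO. Mmp2 came to between 1.98 and 4.19% of that sum in the 32 libraries, with both ends of that range at E12.5, while Mmp2 itself ran from 15 to 141 CPM. At E12.5 Mmp14, Timp1 and Timp2 were also highest in WT replicate 1, and in KO higher in replicates 1 and 4 than in the others. Mmp9, Mmp24 and Timp4 were instead lowest in replicate 1 of both genotypes, and Mmp15 and Mmp16 followed neither pattern. The part of meningeal cells and fibroblasts in the first step of Mmp2, Mmp14, Timp1 and Timp2 was not tested.

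**Figure D3:**
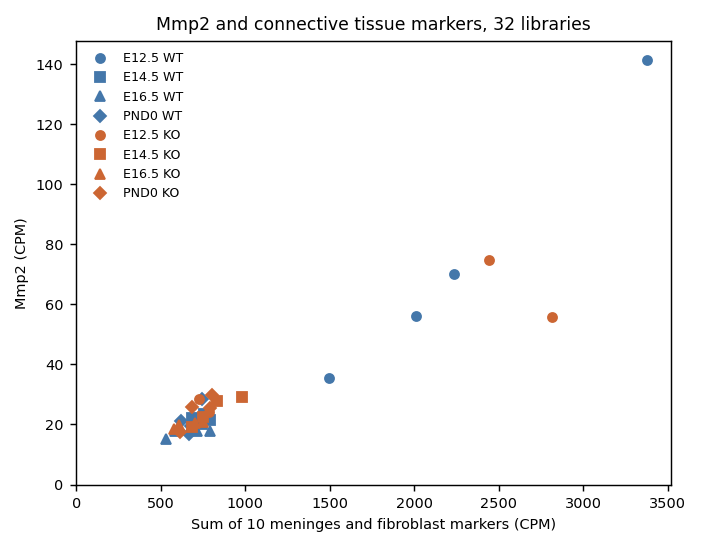
Mmp2 (CPM) against the summed CPM of 10 meninges and fibroblast markers in each of the 32 libraries, WT in blue and KO in orange, with 1 symbol per stage. E12.5 libraries (circles) reach 3377 CPM of markers and 141 CPM of Mmp2; the 24 later libraries lie at or below 979 and 29.9 CPM.

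After E14.5 Mmp2 stayed between 15 and 29.9 CPM. It fell in WT by 0.33 (SE 0.0857, edgeR adjusted p = 0.00355) to 15, 17.8, 17.9 and 17.9 CPM at E16.5. In KO the log2 fold change was -0.28 (SE 0.115, edgeR adjusted p = 0.0447), a call lost when any of 6 libraries was left out (E14.5 KO replicate 3 or 4, or any at E16.5; adjusted p 0.0563 to 0.126). In the fit of all 32 libraries neither passed (adjusted p = 0.417 in WT and 0.479 in KO). The KO libraries at E16.5 had 18.4, 19.8, 20.6 and 20.9 CPM and lay above the WT libraries, with a log2 fold change of 0.20 (SE 0.0888, edgeR adjusted p = 0.407). At PND0 the genotypes overlapped again, at 19.6, 21.1, 28.6 and 16.8 CPM in WT and 25.8, 25.3, 29.9 and 17.6 CPM in KO. From E16.5 to PND0 the change of 0.30 in WT and 0.29 in KO did not pass (edgeR adjusted p = 0.1 and 0.112). It passed without PND0 WT replicate 4 (adjusted p = 0.0254) and without PND0 KO replicate 4 (0.00371).

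The ratio of the 2 gelatinases, per kb of transcript, therefore changed over the stages. Mmp9 was 0.0376 to 0.275 of Mmp2 at E12.5, 0.646 to 1.32 at E14.5 and 0.84 to 0.952 at E16.5, over both genotypes. At PND0 it was 0.679, 0.667, 0.461 and 0.657 in WT and 0.731, 0.891, 1.09 and 1.38 in KO. The KO libraries lay above the WT libraries, a description that rests on the Mmp9 values that chose the gene.

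Mmp14 encodes the main cell-surface activator of pro-MMP2. It declined with age up to PND0 in WT, and up to E16.5 in KO. WT had 227, 158, 124 and 155 CPM at E12.5, 110, 111, 116 and 105 CPM at E14.5, 77.7, 71.2, 95.6 and 87.3 CPM at E16.5 and 68.2, 65.0, 72.6 and 75.7 CPM at PND0. The log2 fold changes of the 3 steps were -0.61 (SE 0.165, edgeR adjusted p = 0.0121), -0.40 (SE 0.0786, adjusted p = 0.000677) and -0.26 (SE 0.0928, adjusted p = 0.0266). The first missed the threshold with no filter on low counts (0.0528), and the last when E16.5 WT replicate 3 or 4 or PND0 WT replicate 1 or 2 was left out (0.0678 to 0.101) or all 32 libraries were fitted (0.182).

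In KO, Mmp14 had 166, 125.4, 124 and 159 CPM at E12.5 and 123, 112, 115 and 113 CPM at E14.5. This fall of 0.32 (SE 0.110, edgeR adjusted p = 0.0341) was lost without E12.5 KO replicate 4 or any E14.5 KO library (0.0566 to 0.0912). It fell by 0.38 to 84.9, 83.1, 85.4 and 101 CPM at E16.5 (SE 0.0532, edgeR adjusted p = 1.63e-06). The last step in KO was 0.01 (SE 0.102, edgeR adjusted p = 0.922), and -0.11 without PND0 KO replicate 3. At PND0 the KO libraries had 83.5, 82.1, 112 and 84.2 CPM, all above the WT libraries, a log2 fold change of 0.35 (SE 0.105) and of 0.23 without KO replicate 3. At the embryonic stages the genotype difference in Mmp14 was -0.23, 0.07 and 0.08 (edgeR adjusted p = 0.894, 0.646 and 0.772), and the groups overlapped.

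Mmp15, a membrane-type enzyme of epithelia and other tissues, dipped at E16.5 in both genotypes. In WT the range was 71.6 to 100 CPM at E12.5, 98.3 to 108 CPM at E14.5, 60.7 to 67.7 CPM at E16.5 and 73.8 to 98.4 CPM at PND0. In KO it was 62.8 to 99.3, 90.3 to 100, 65.5 to 72 and 89.5 to 104 CPM. The E16.5 libraries lay below those of the stages on either side, with falls of 0.64 in WT and 0.51 in KO (edgeR adjusted p = 9.52e-08 and 2.66e-09) and rises of 0.44 and 0.47 to PND0 (0.000677 and 9.89e-05). The first WT step, 0.23 (edgeR adjusted p = 0.0433), passed in 1 of 8 fits that left out a library, the one without E12.5 WT replicate 4 (0.00634); in the others p was 0.0536 to 0.108. Genotype differences ran from -0.05 to 0.09 over the 4 stages.

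Mmp16, a membrane-type enzyme expressed in brain, alternated between stages in both genotypes. WT had 23.4, 21.0, 24.1 and 19.3 CPM at E12.5, 10.1, 10.7, 8.91 and 9.62 CPM at E14.5, 22.9, 34.3, 33.1 and 28.6 CPM at E16.5 and 11.8, 15.1, 15.6 and 15.8 CPM at PND0. No library overlapped with one of the stage before it. The log2 fold changes were -1.19 (SE 0.101, edgeR adjusted p = 1.08e-05), 1.62 (SE 0.116, adjusted p = 1.69e-08) and -1.06 (SE 0.138, adjusted p = 1.97e-05). KO had 11.3, 17.4, 16.1 and 21.2 CPM, then 9.70 to 11.4, 29.0 to 34.8 and 14.3 to 18.9 CPM. Its steps were -0.64, 1.54 and -0.95 (edgeR adjusted p = 0.00986, 3.94e-13 and 2.22e-05). All 6 steps passed the test in every alternative run. With stages in separate tables, the part of processing in this alternation cannot be told apart from the stage. At E12.5 the log2 fold change between genotypes was -0.43 and did not pass (SE 0.178, edgeR adjusted p = 0.875); the groups overlapped. The differences at the other stages were 0.12, 0.03 and 0.14.

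Mmp24, the membrane-type enzyme of neurons that cleaves N-cadherin, rose with age. WT had 28.0, 39.6, 58.0 and 46.4 CPM at E12.5 and 102, 106, 97.4 and 104 CPM at E14.5, a rise of 1.22 on the log2 scale (SE 0.181, edgeR adjusted p = 0.000582). It had 111, 111, 108 and 105 CPM at E16.5 (0.11, edgeR adjusted p = 0.0672, not past the threshold) and 188, 193, 181 and 173 CPM at PND0 (0.73, edgeR adjusted p = 4.98e-07). In KO all 3 steps passed, at 1.06, 0.34 and 0.60 (edgeR adjusted p = 0.00442, 1.68e-06 and 5.51e-06), though the second did not in the fit of all 32 libraries (0.116).

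Of the tested genotype differences of the 9 members, that of Mmp24 at E16.5 had the smallest p. KO had 143, 141, 139 and 124.5 CPM, every library above the 105 to 111 CPM of WT. The log2 fold change was 0.32 (SE 0.0566, 1.25-fold) and missed the threshold in edgeR (unadjusted p = 5.59e-05, adjusted p = 0.0746). It passed with no filter on low counts (0.000118), in DESeq2 (0.00019) and without E16.5 KO replicate 4 (0.0417), and over all alternatives the adjusted p ran from 0.000118 to 0.997, the last with all 32 libraries fitted. KO was also higher at PND0, at 217, 209, 199 and 215 CPM with no overlap (0.18, SE 0.0678, no test). At E14.5 the ranges overlapped, at 97.4 to 106 CPM in WT and 103 to 117 CPM in KO (0.10, edgeR adjusted p = 0.517). The 10 radial glia and astrocyte markers moved with genotype at E16.5 as well, summing to 1436, 1412, 1411 and 1532 CPM in WT and 1379, 1344, 1261 and 1350 CPM in KO; their part in the Mmp24, Mmp9 and Mmp2 differences was not tested. BC029722, whose exons overlap the end of Mmp24, had 7.77 to 12.3 CPM in WT and 9.47 to 10.7 CPM in KO at E16.5, and 8.43 to 13.1 and 15.3 to 16.1 CPM at PND0. Its part in the Mmp24 counts was not tested.

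Timp1, the inducible inhibitor and the usual partner of pro-MMP9, was scarce. Its levels were 4.34, 2.74, 1.78 and 2.36 CPM in WT and 2.96, 1.28, 1.27 and 2.36 CPM in KO at E12.5, and 0.491 to 2.49 CPM in the libraries of E14.5 and E16.5. At PND0 WT had 1.07, 0.951, 1.06 and 1.14 CPM and KO 0.844, 0.643, 0.17 and 0.477 CPM. These stood for 19, 15, 19 and 23 counts in WT and 17, 10, 3 and 8 counts in KO. All KO libraries were below all WT libraries, with KO replicate 3 the lowest. The log2 fold change was -0.98 (SE 0.470) and -0.69 without KO replicate 3, from the contrast that chose the set and so without a test.

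From E16.5 to PND0 Timp1 fell in KO by 1.84 on the log2 scale (SE 0.403, edgeR adjusted p = 0.00205), and in all alternatives run for this step it passed. In WT the change was -0.68 (SE 0.291, edgeR adjusted p = 0.0645). Whether the steps differ between the genotypes was not tested. From E12.5 to E14.5 the WT fall of 1.08 (edgeR adjusted p = 0.037) was lost without E12.5 WT replicate 1 or 2 or E14.5 WT replicate 1, 3 or 4 (0.0511 to 0.0833). Syn1, the synapsin gene that encloses Timp1, had 263 to 310 CPM in WT and 279 to 319 CPM in KO at PND0, with overlap.

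Timp2, the inhibitor that also takes part in the activation of pro-MMP2, became the most abundant member per kb of longest transcript. Per kb of coding sequence it was first already at E12.5 in WT, at 150 against 95.2 for Mmp14, with overlap. WT had 133, 96.4, 81.4 and 85.5 CPM at E12.5, 132, 132, 122 and 130 CPM at E14.5, 165.4, 161, 132 and 134 CPM at E16.5 and 386, 374, 375 and 369 CPM at PND0. The last step was a rise of 1.31 in WT (SE 0.0830, edgeR adjusted p = 4.98e-08) and of 1.16 in KO (SE 0.0827, edgeR adjusted p = 5.2e-07), with all PND0 libraries above all E16.5 libraries. The first step was 0.35 in WT (edgeR adjusted p = 0.0676). It passed with RLE size factors (0.048), in DESeq2 (0.0202), with the replicate block (0.0224), with all 32 libraries fitted (0.00522) and without E12.5 WT replicate 1 (1.02e-05), which had the highest Timp2 of its group. In KO it was 0.69 (edgeR adjusted p = 0.00062).

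From E14.5 to E16.5 Timp2 rose by 0.22 in WT (edgeR adjusted p = 0.0137) and 0.37 in KO (0.000512). The WT call was lost without E14.5 WT replicate 3 (0.0512) or E16.5 WT replicate 1 (0.0507), and in the fit of all 32 libraries (0.117). Between genotypes Timp2 had 144, 143, 137 and 129 CPM in KO at E14.5 (0.10, edgeR adjusted p = 0.376) and 176, 186, 195 and 152 CPM at E16.5 (0.24, SE 0.0968, edgeR adjusted p = 0.388). The E16.5 difference passed with no filter on low counts (0.0146). Both overlapped with WT. At PND0 KO had 380 to 443 CPM (0.09, no test).

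Timp4, the inhibitor expressed in brain, heart and fat, rose from near 1 CPM at every WT step. WT had 0.663, 0.731, 1.96 and 1.02 CPM at E12.5, 2.90, 2.83, 2.89 and 1.99 CPM at E14.5, 4.58, 7.95, 4.18 and 5.42 CPM at E16.5 and 9.62, 7.86, 14.47 and 11.9 CPM at PND0. The steps were 1.25, 1.08 and 0.96 on the log2 scale (edgeR adjusted p = 0.00681, 0.000322 and 0.00262), and each passed in all alternatives run. KO rose by 1.21 and 1.36 to E16.5 (edgeR adjusted p = 0.00365 and 3.13e-07). Its last step was 0.21 (SE 0.205, edgeR adjusted p = 0.434). At PND0 KO had 7.70, 7.53, 9.90 and 4.88 CPM, overlapping with WT, with a log2 fold change of -0.55 (SE 0.229, no test). Syn2, whose exons overlap Timp4 on the opposite strand, also rose over the WT steps from E12.5 to PND0, by 1.59, 0.56 and 1.19 (edgeR adjusted p = 0.000205, 0.0117 and 3.36e-05). It had 144 to 182 CPM in WT and 134 to 162 CPM in KO at PND0. Its part in the Timp4 counts was not tested.

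Counted over the set, the genotype had few calls at the embryonic stages. None of the 9 genes passed edgeR's test at E12.5, E14.5 or E16.5, where 0.0177, 0.527 and 0.0462% of all genes tested did. Unadjusted, 1, 2 and 4 members had an edgeR p under 0.05, as did 796 of 16948, 1557 of 17837 and 2001 of 17328 genes. DESeq2 called 0, 0 and 1 members, and 30 of 23270, 122 of 10794 and 150 of 6382 genes with an adjusted p. It gave no adjusted p for Timp1 and Timp4 at E14.5, nor for these, Mmp9, Mmp2 and Mmp16 at E16.5. The median log2 fold change of the members was -0.23, 0.07 and 0.20 against 0.00 over all genes at each stage. It was above 0 for 2 members (Mmp9 and Mmp24) at E12.5, 7 at E14.5 and all 9 at E16.5. Members with no overlap between genotypes numbered 0, 0 and 3, the last being Mmp9, Mmp2 and Mmp24, all higher in KO; over all genes 2.53, 4.77 and 6.39% did not overlap. A test of whether the genotype difference changed among the embryonic stages called none of the 9 (edgeR adjusted p 0.585 to 0.93) and 0% of all genes. DESeq2 also called 0 members. Unadjusted, 2 members and 1567 of all 18820 genes had an edgeR p under 0.05.

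At PND0, the contrast behind the choice of Mmp9, the members have no test; 1.44% of all genes passed it. The median of the members was 0.14 and 7 members were above 0. Mmp9, Mmp14 and Mmp24 were higher and Timp1 lower with no overlap, where 11.9% of all genes did not overlap. Nothing is read from these counts. KO replicate 3 was the highest library in Mmp9, Mmp2, Mmp14, Mmp15 and Timp2 and the lowest in Timp1. It also had the highest sums of erythroid (2263 CPM), radial glia and astrocyte (1750), pericyte and smooth muscle (333) and choroid plexus (1015) markers. Its sums for endothelium (499), meninges and fibroblasts (805) and neurons (7193) were the highest too. It was not the highest for neutrophil, microglia and macrophage, osteoclast and bone, oligodendrocyte or hindbrain markers. The part of these cells was not tested. The hindbrain and spinal cord sum, lower in every KO library at PND0, also moved with genotype there, and its part in the members' differences was not tested.

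**Figure D4:**
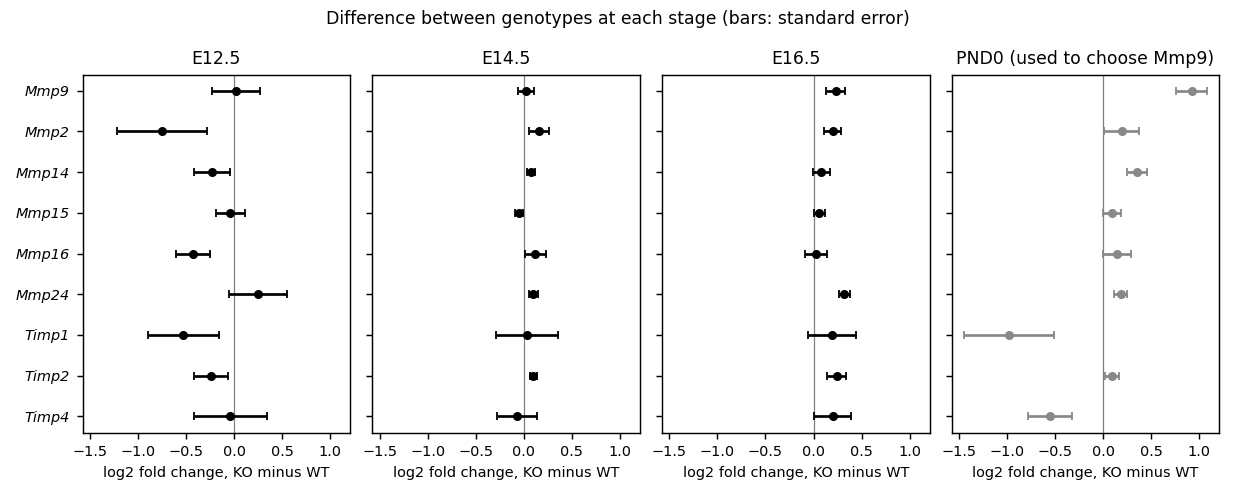
Log2 fold change, KO minus WT, of the 9 genes at each stage; points are estimates and bars their standard error, with PND0 in grey because it was used to choose Mmp9. At E16.5 all 9 estimates lie above 0, from 0.03 for Mmp16 to 0.32 for Mmp24; at PND0 Mmp9 (0.92) and Timp1 (-0.98) lie farthest from 0.

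Most members moved in each step between stages, against a broad background. In WT 8 of 9 passed from E12.5 to E14.5 (4 higher, 4 lower), where 27.3% of all genes rose and 30.5% fell. From E14.5 to E16.5, 7 of 9 passed (3 higher, 4 lower), where 29.3% rose and 28.2% fell. From E16.5 to PND0, 6 of the 8 tested passed (4 higher, 2 lower), where 26% rose and 27.2% fell. In KO 7 of 9 passed in the first step (4 higher, 3 lower), against 24.3% of all genes higher and 25% lower. The KO counts were 8 of 9 in the second (4 and 4), against 30.9 and 30.5%, and 5 of 8 in the last (3 and 2), against 23.3 and 24.9%. Mmp24, Timp2 and Timp4 never fell in a step, whereas the members past the threshold from E12.5 to E14.5 in the downward direction in both genotypes were Mmp2, Mmp14 and Mmp16.

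The wider pathway was read from 5 lists with 100 entries, all in the tables. Of 17 other matrix metalloproteinases only 6 passed the filter on low counts, and none passed the test between genotypes at an embryonic stage; their medians were -0.13, 0.14 and 0.11. Mmp11, which encodes stromelysin-3, was higher in KO at PND0 at 13.9, 16.1, 17.8 and 20.1 CPM against 11.4, 10.5, 9.83 and 11.2 CPM in WT, with no overlap (0.65, SE 0.148). That contrast is the one behind the choice of Mmp9, so no test is given. Mmp11 had 18.2 and 19.2 CPM on average in WT and KO at E16.5. From there to PND0 its log2 fold change was -0.79 in WT and -0.20 in KO. These steps have no test either, since the PND0 libraries picked Mmp11. Among 23 other inhibitors and activators, which include Timp3, Reck and the plasminogen activators, 21 were tested and 0 passed between genotypes at any embryonic stage. Timp3, the matrix-bound inhibitor, had 54.6 to 79.4 CPM in WT and 31.2 to 70.8 CPM in KO at PND0 (-0.41, SE 0.232).

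The 15 adamalysins, all tested, had 0 calls between genotypes at the embryonic stages, with medians from -0.27 at E12.5 to 0.10 at E16.5. Of the 27 basement membrane and matrix substrates none passed at those stages either. Their median was -0.49 at E12.5 and 0.05, 0.05 and 0.01 later. E12.5 was also the stage at which fibroblast markers spread most. Col1a1, Col1a2 and Col3a1 are in both lists, and the part of fibroblasts in this median was not tested. The counts of substrates that rose and fell differed between steps. From E12.5 to E14.5, 5 rose and 10 fell in WT (median -0.18), where 27.3% of all genes rose and 30.5% fell. In KO 12 rose and 5 fell in that step (median 0.30), where 24.3% of all genes rose and 25% fell. From E14.5 to E16.5, 5 rose and 16 fell in each genotype, with medians of -0.41 in WT and -0.42 in KO. There 29.3% of all genes rose and 28.2% fell in WT, and 30.9% rose and 30.5% fell in KO. From E16.5 to PND0, 21 of the 27 rose and 1 fell in WT, with a median of 0.57 against -0.01 over all genes, of which 26% rose and 27.2% fell. In KO 15 rose and 1 fell in that step, with a median of 0.37, where 23.3% of all genes rose and 24.9% fell. Of 18 factors known to act on the Mmp9 promoter, 16 were tested at each embryonic stage, and Ets1, a transcription factor of endothelium and lymphoid cells, was the one that passed. It was higher in KO at E14.5, at 46.1 against 38.4 CPM on average, with no overlap (0.26, SE 0.0552, edgeR adjusted p = 0.00757). At E16.5 its difference was 0.02 and at PND0 -0.12. At E14.5, 0.527% of all genes tested passed. That was 94 genes, against 4 with all 32 libraries fitted, and the Ets1 call is given for the main fit only.

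The genes whose log2 CPM followed Mmp9 most closely over the 32 libraries, among 16065 with a mean of at least 1 CPM, were Ntng2 (Pearson r = 0.922), Evl (0.913), Foxo6 (0.912), Vps33b (0.901) and Carmil3 (0.899). These points share the 8 groups and so mainly the course over the stages. For deviations from the 8 group means those among the closest were Lrfn5 (0.814), Camsap2 (0.811), Ptpra (0.808) and Rabgap1l (0.798). Mmp24 was the member with the highest Pearson r to Mmp9 by either measure, at 0.796 and 0.643; by Spearman's rho for the deviations Mmp16 (0.396) and Mmp24 (0.39) were close. Over the libraries Mmp2, Timp1 and Mmp14 had the most negative Pearson r to Mmp9 among the members, at -0.687, -0.606 and -0.536. Their Spearman's rho was weaker, at -0.334, -0.506 and -0.287. These values describe likeness of pattern only.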

How the data were processed

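RNA from mouse whole brains was enriched for polyadenylated transcripts and sequenced as paired reads of 150 bases, per the labels' protocols. The authors deposited 1 table per stage of raw counts per gene symbol, not normalized. Per the submitters' processing notes the tools were HISAT2, SAMtools, featureCounts and DESeq2 on mm10; versions, annotation and strand setting are not given in the sources used here. Columns were matched to libraries by name. No pair of libraries in a group was a copy (48 pairs, chi-square per degree of freedom 2.899 to 114.7).

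Each comparison was fitted on its own libraries across all genes with edgeR 4.0.16 in R 4.3.3 (TMM, filterByExpr with minimum count 10 and minimum total 15, robust quasi-likelihood F test). A call is a Benjamini-Hochberg adjusted p under 0.05 over all genes tested. SE is the log2 fold change divided by the square root of F. The interaction used the 24 embryonic libraries. Correlations used log2 CPM with a prior count of 2. The fit was tested on simulated counts.

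Positions and lengths come from GENCODE M21 (GRCm38). Alternatives were RLE size factors, no filter, DESeq2 1.42.0, each library left out, a replicate block, all 32 libraries in 1 fit, transcript length offsets and a sex-gene covariate. Libraries with the Y-linked gene Ddx3y above 1 CPM numbered 1 in WT and 2 in KO at E12.5, and 2 and 1 at E16.5. They numbered 3 in each genotype at E14.5 and 2 in each at PND0. Members, lists and the rule for named genes were chosen with earlier results of these data known. That rule took all 9 members, Dhcr7, genes of the lists past the threshold (at most 5 at PND0), neighbours within 10 kb of Mmp9, Mmp24 and the inhibitors, and the 5 genes most like Mmp9 by each measure. Timp3 was named outside it, after its values were seen. 1 of the genes most like Mmp9 is not reported here. The 112 entries of 12 marker lists were summed per library without a test.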

Additional observations from a re-analysis of the deposited data

Results flagged for a closer look

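Among the 72 sets of 4 libraries (9 genes in 8 groups), 7 held a library whose gap to its nearest neighbour, as a share of the group's range, exceeded Dixon's critical value for 4 samples; chance gives about 1 in 20. These were Mmp2 in E16.5 WT replicate 1 (15 CPM, low), Mmp14 in E16.5 KO replicate 4 (101 CPM, high), Mmp14 in PND0 KO replicate 3 (112 CPM, high), Mmp15 in E14.5 WT replicate 1 (108 CPM, high), Mmp15 in E14.5 KO replicate 3 (90.3 CPM, low), Mmp16 in E16.5 KO replicate 3 (34.8 CPM, high) and Timp4 in E14.5 WT replicate 4 (1.99 CPM, low). Without PND0 KO replicate 3 the Mmp14 difference at PND0 went from 0.35 to 0.23 on the log2 scale. Without E16.5 WT replicate 1 the Mmp2 difference at E16.5 went from 0.20 to 0.15.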

How the results depend on the processing

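The number of members called between genotypes was 0 at E12.5 and E14.5, and for the interaction among embryonic stages, under every alternative run. At E16.5 it was 0 in the main fit, 2 with no filter on low counts (Mmp24 and Timp2), and 0 to 1 when a library was left out. DESeq2 called 1 there, with no adjusted p for Mmp9, Mmp2, Mmp16, Timp1 or Timp4. At PND0 the count rests on the contrast that chose Mmp9, and nothing is read from it: it was 1, 2 with no filter and in DESeq2, and 0 (without WT replicate 3) to 1 with a library left out. The step from E14.5 to E16.5 in KO gave 8 members, and 5 in the fit of all 32 libraries.

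Differences near 0 changed sign. Mmp9 at E12.5 was 0.00 with the replicate block, -0.09 with the sex-gene covariate and -0.16 to 0.19 with a library left out. Mmp15 at E12.5 ran from -0.12 to 0.06, Timp4 at E12.5 from -0.25 to 0.38 (0.01 with the block), Mmp9 at E14.5 from -0.07 to 0.07, Timp1 at E14.5 from -0.24 to 0.23, Timp4 at E14.5 from -0.18 to 0.06, and Mmp16 at E16.5 from -0.07 to 0.10 (-0.02 with the covariate). The last step of Mmp14 in KO ran from -0.11 to 0.07. The causes were not tested.

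Of the 432 stage-step values with a library left out, 389 kept their direction and call, 36 lost the call, 3 gained it and 4 changed sign. Deviations of same-numbered libraries had correlations from -0.196 to 0.268, not all above 0.1 in any comparison. Between genotypes at E12.5, 2 of the 4 pairs were above 0.1. In the WT steps from E14.5 to E16.5 and from E16.5 to PND0, 3 of 4 libraries correlated most with their own number. The main fit did not pair libraries, and these values do not settle whether the numbers link them. Over all genes the block gave 6, 131, 5 and 356 calls between genotypes at the 4 stages, against 3, 94, 8 and 250. The replicate block lost the calls of Timp1 in the first WT step (adjusted p = 0.0844) and Mmp2 in the first KO step (0.0586), gained Timp2 in the first WT step (0.0224) and changed no other member's call; each comparison's count moved by at most 1.

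Counts over all genes depended more on the settings: at E12.5 3 genes against 52 in the fit of all 32 libraries, at E14.5 94 against 4 there, at E16.5 8 against 233 with no filter and 150 in DESeq2, and at PND0 250 against 1091 and 921, 1205 with all 32 libraries, 47 with length offsets and 35 without WT replicate 3. By Spearman correlation 1 of the 5 genes most like Mmp9 over the libraries and 3 of the 5 by deviations were shared. With coding length in place of transcript length, 43 of 72 ranks per length were the same. Depth limits Timp1, with 3 to 23 counts per library at PND0.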
